A study of Mus musculus with 4 samples.

Results

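Expression of 9 genes of extracellular matrix breakdown was measured in B16-F10 cells, a mouse melanoma line, with or without recombinant Cdh1. They are the metalloproteinases Mmp2, Mmp3, Mmp9 and Mmp14, the tissue inhibitors of metalloproteinases Timp1, Timp2 and Timp3, and the plasminogen activators Plau and Plat. Members were all non-control probes whose RefSeq accession belongs to one of these genes, which gave 13 of 56605 probes and all 9 genes, of 23462 genes named on the array. This rule uses no measured value, but the genes were chosen with earlier results of these data known.

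The cells carried no stated genetic change and were cultured for 24 h without (control, 2 arrays) or with (Cdh1, 2 arrays) recombinant Cdh1 at 100 ng/mL. Cdh1 is the mouse symbol of E-cadherin, the adhesion protein of epithelial cells. The labels give no more than this symbol. The cultures formed 2 sets, called independent in the series' design text, each with 1 control and 1 Cdh1 culture. RNA of each culture was measured on its own 1-colour Agilent array. A spot or probe is called detected here where the scanner software flagged it as well above background, which held for 59.3% to 61.3% of the 59305 non-control spots of an array. No spot was saturated (0). Each signal is a log2 value relative to the 75th percentile of its array, so that 0 stands for a processed intensity of 569 to 623. With 2 arrays a group, an exact two-sided permutation test cannot give a p below 0.333, so single genes were tested in a fit across all probes. All results are for 1 cell line.

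The label of the cells was checked against markers. All 7 melanocyte genes examined (Tyr, Tyrp1, Dct, Pmel, Mlana, Mitf and Sox10) were detected on all 4 arrays. The summed level of this list was 1549 and 1322 in the control arrays and 1516 and 1318 in the Cdh1 arrays, in units of the array's 75th percentile. Of the 7 fibroblast markers, Col1a1, Col1a2, Pdgfra and Pdgfrb were detected on all 4 arrays, with a summed level of 2.75 to 3.61. Dcn, Lum and Col3a1 were not on any array. Of the 6 macrophage markers, Itgam, Csf1r, Cd68 and Cd14 were, with a summed level of 10.5 to 12.2, whereas Ptprc and Adgre1 were not. Most of that level came from Itgam, with signals of 3.44 and 3.43 in set 1 and 3.22 and 3.40 in set 2 (control and Cdh1). Of the 5 endothelial and 5 epithelial markers 1 and 2 were detected on all 4 arrays, with summed levels of 0.0787 to 0.109 and 0.0883 to 0.0982.

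Matrix metalloproteinases are zinc enzymes that cut collagens and other matrix proteins. They are made as inactive precursors, and TIMPs bind and block the active enzymes. Mmp14 is anchored in the cell membrane and activates the Mmp2 precursor with the help of Timp2, which thus serves both as inhibitor and as adaptor. Plau (urokinase) and Plat (tissue plasminogen activator) turn plasminogen into plasmin, a protease that clears fibrin and can activate some metalloproteinase precursors. In melanoma, these enzymes are known for their part in invasion.

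The regions upstream of 4 of the genes are shown because they cover the cases seen in the data: an undetected protease gene (Mmp3), 2 genes with higher values in the second culture set (Timp2 and Mmp14) and 1 with lower values (Timp3). Of these only Timp2 was called between the sets, on 1 of its probes, and the differences of Mmp14 and Timp3 did not pass the threshold. Each is the 250 bases before the annotated start, 5′ to 3′ on the strand of the gene, from RefSeq for the build GRCm38.p6. Windows of 5 of the 9 genes were matched by symbol, the fifth being Timp1. Capitals mark the AP-1 site TGANTCA, the TATA motif TATAAA and the GC box GGGCGG, searched on both strands, with each stretch counted once. The GC boxes of Mmp14 lie next to each other.
Mmp3, chr9:7445572-7445821, + strand: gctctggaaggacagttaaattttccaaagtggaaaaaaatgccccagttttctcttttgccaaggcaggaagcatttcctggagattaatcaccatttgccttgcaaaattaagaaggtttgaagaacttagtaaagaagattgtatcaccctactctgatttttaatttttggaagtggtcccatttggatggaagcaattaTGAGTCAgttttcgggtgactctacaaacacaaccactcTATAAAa
Mmp14, chr14:54431348-54431597, + strand: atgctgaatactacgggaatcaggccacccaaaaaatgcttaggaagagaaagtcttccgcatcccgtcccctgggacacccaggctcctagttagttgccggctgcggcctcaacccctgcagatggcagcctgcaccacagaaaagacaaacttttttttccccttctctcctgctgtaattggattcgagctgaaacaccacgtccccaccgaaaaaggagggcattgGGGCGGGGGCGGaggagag
Timp2, chr11:118355412-118355661, - strand: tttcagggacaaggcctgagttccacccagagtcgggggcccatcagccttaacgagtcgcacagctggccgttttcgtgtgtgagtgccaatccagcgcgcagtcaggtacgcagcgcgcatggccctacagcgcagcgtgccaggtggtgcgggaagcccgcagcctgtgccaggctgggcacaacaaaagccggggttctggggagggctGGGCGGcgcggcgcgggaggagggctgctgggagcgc
Timp3, chr10:86300162-86300411, + strand: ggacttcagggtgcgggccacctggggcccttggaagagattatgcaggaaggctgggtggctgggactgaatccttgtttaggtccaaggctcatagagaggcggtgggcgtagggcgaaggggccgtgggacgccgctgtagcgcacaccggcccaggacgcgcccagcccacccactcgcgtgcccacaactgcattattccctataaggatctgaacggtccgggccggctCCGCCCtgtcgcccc

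The Mmp3 window held 1 AP-1 site and 1 TATA motif and no GC box. The windows of Mmp14, Timp1, Timp2 and Timp3 held 2, 1, 1 and 1 GC boxes and neither of the other motifs. Over all 32851 windows of this length in the table, 6.75% held the AP-1 site, 12.4% TATAAA and 32.7% the GC box. The number of CpG dinucleotides was 1 in Mmp3, 6 in Timp1, 10 in Mmp14, 18 in Timp3 and 21 in Timp2, against a median of 6 over all windows. Of the genes on the array with at most 1 CpG in the window, 20.1% had a probe detected on all 4 arrays, compared with 42% of those with 2 to 9, where Timp1 belongs, and 83.5% of those with 10 or more. The share over all genes with a window was 60.5%. Such matches describe the letters of these windows and no binding was measured.

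The 9 genes divided into 6 whose probes were all detected on every array and 3 that were not on any. Mmp2, Mmp14, Timp1, Timp2, Timp3 and Plat were in the first group with 8 probes, and Mmp3, Mmp9 and Plau in the second with 5 probes. Over the whole array 55% of probes and 59.7% of genes were detected on all 4 arrays. All 3 TIMP genes were thus measurable, as were the membrane-bound Mmp14 and its substrate Mmp2, whereas the stromelysin Mmp3, the gelatinase Mmp9 and urokinase were not detectable at this signal over background. No probe of these genes was detected in 1 group alone, so no bound on a fold change was needed.

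**Figure D1:**
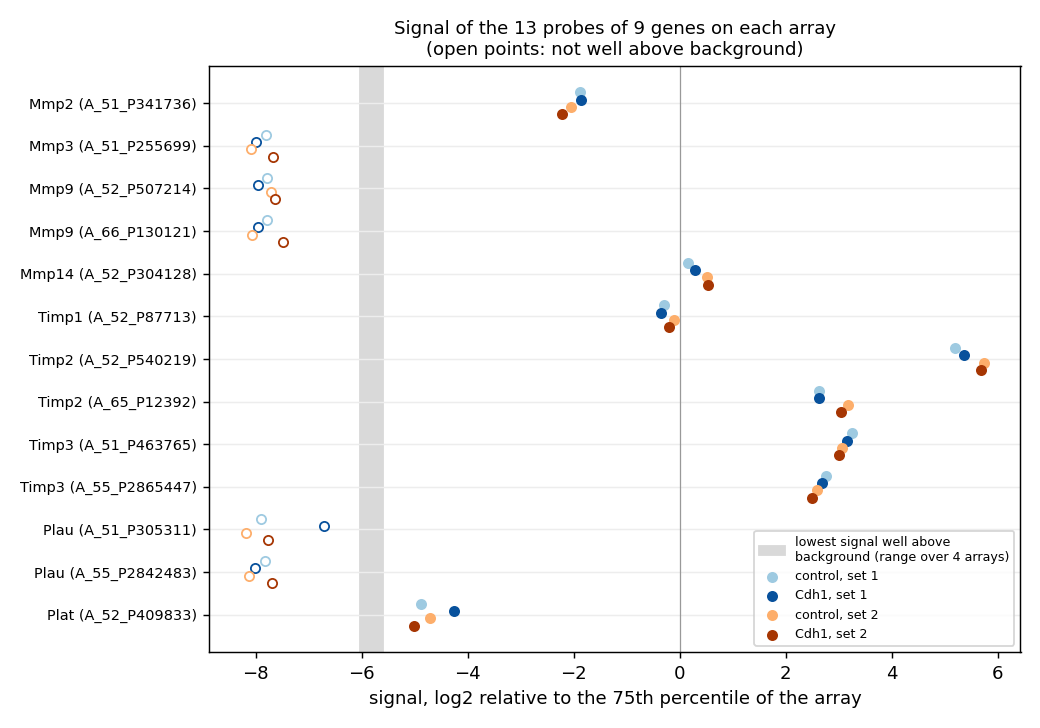
Signal of each probe on each of the 4 arrays, as log2 relative to the 75th percentile of the array, with colours for group and culture set and a grey band for the dimmest detected probe of each array (-6.04 to -5.60). The 8 filled rows lie to the right of the band, and the 5 open rows, of Mmp3, Mmp9 and Plau, lie to its left. Levels of different probes are not comparable with each other.

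Mmp14 (NM_008608), the membrane-type metalloproteinase, had signals of 0.16 (control) and 0.28 (Cdh1) in set 1, and of 0.51 and 0.53 in set 2. Both arrays of set 2 were above both of set 1, while control and Cdh1 arrays overlapped. Mmp2 (NM_008610), a secreted gelatinase that cuts collagen IV and denatured collagen, had signals of -1.88 (control) and -1.86 (Cdh1) in set 1, and of -2.05 and -2.22 in set 2. Here both arrays of set 2 were below those of set 1, and the treatment groups again overlapped.

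The probe of Mmp3 (NM_010809), stromelysin 1, gave processed intensities of 2.54, 2.26, 2.28 and 3.03 in control set 1, Cdh1 set 1, control set 2 and Cdh1 set 2. The dimmest detected probe had an intensity of 10.4, 9.38, 9.50 and 12.7 on these arrays. Mmp9 (NM_013599), the other gelatinase, has 2 probes, with intensities of 2.30 to 3.07 for one and of 2.32 to 3.43 for the other. Mmp3 and Mmp9 were not well above background in either group, so their levels were not compared.

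Timp2 (NM_011594) has 2 probes. The first (A_52_P540219) had signals of 5.20 (control) and 5.37 (Cdh1) in set 1, and of 5.74 and 5.68 in set 2. The second (A_65_P12392) had signals of 2.63 and 2.63 in set 1, and of 3.17 and 3.05 in set 2. The probes differ in brightness but not in order: on both, each array of set 2 was above each array of set 1.

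Timp3 (NM_011595), which unlike the others binds to the matrix, also has 2 probes. A_51_P463765 had signals of 3.25 (control) and 3.15 (Cdh1) in set 1, and of 3.07 and 3.01 in set 2. A_55_P2865447 had signals of 2.77 and 2.68 in set 1, and of 2.60 and 2.50 in set 2. Both probes of Timp3 gave the same order of the 4 arrays, with control set 1 highest and Cdh1 set 2 lowest. The second probe lies in row 362 of 384, among the last 24 rows, which were left out in an alternative.

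Timp1 (NM_001044384), a soluble inhibitor of most metalloproteinases, had signals of -0.30 (control) and -0.36 (Cdh1) in set 1, and of -0.11 and -0.21 in set 2. Its arrays of set 2 were above those of set 1, and its Cdh1 array was the lower of the pair in both sets.

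Plat (NM_008872) was the member nearest to background among those measured, with processed intensities of 19.4 in control and 30.1 in Cdh1 cells of set 1, and of 23.9 and 19.1 in set 2. As signals these are -4.87, -4.26, -4.70 and -5.01, so that the Cdh1 arrays held both the highest and the lowest value. Plau (NM_008873) has 2 probes, neither well above background on any array. One of them, in row 243, gave intensities of 2.22 to 2.98. The other lies in row 384, the last of the array, and gave 2.39 in control and 5.46 in Cdh1 cells of set 1, and 2.15 and 2.82 in set 2. Its Cdh1 values were the higher ones in both sets, but all lay below that of the dimmest detected probe.

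The comparison of Cdh1 with control asked which of these genes responded to the recombinant protein, and none passed the test. The changes were small for the TIMPs and metalloproteinases, between -0.09 and 0.07 on the log2 scale, and that of Plat was 0.15. Of the 8 probes tested, 0 were called at an adjusted p under 0.05 (limma, Benjamini-Hochberg over 32568 probes, n = 2 per group), and 0 reached an unadjusted p under 0.05. Over all probes tested 0% were called, and 1.72% reached an unadjusted p under 0.05. Of the 8 probes 3 were higher and 5 lower with Cdh1 in the mean, where 48.1% and 51.9% of all probes were, with a median difference of -0.07, against -0.0041 over all probes. The share of all probes that were higher depended on the scaling, being 31.8% with median centring and 60% with the authors' deposited table, while 3 of the 8 member probes were higher under both. The median absolute difference was 0.08 for the 8 probes and 0.06 for all.

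The intervals of these differences show what sizes the arrays could have missed. Timp1 was -0.20 ± 0.14 in control and -0.28 ± 0.11 in Cdh1 cells (SD, n = 2). The groups differed by -0.08 (SE 0.13), with a limma 95% interval of 0.732-fold to 1.22-fold. For the brighter probe of Timp3, the signal was 3.16 ± 0.12 in control and 3.08 ± 0.10 in Cdh1 cells (SD, n = 2), with an interval of 0.741-fold to 1.21-fold. The interval was 0.738-fold to 1.496-fold for Mmp14 and 0.681-fold to 1.33-fold for Mmp2. For Timp2 it was 0.654-fold to 1.66-fold and 0.576-fold to 1.59-fold on its 2 probes. It was widest for Plat, at 0.634-fold to 1.95-fold. None of these 8 intervals held a change of 2-fold or more in either direction, and each held 1, so smaller changes were neither shown nor shown to be absent. These limits change with the culture set as a block. The interval of Plat then ran from -0.72 to 1.03 on the log2 scale and so held a 2-fold rise, while those of the other 7 probes became narrower and lay between -0.33 and 0.34.

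Within the sets the sign of the difference was the same for 4 of the 8 probes, against 52.9% of all probes tested. These were Mmp14 (0.12 in set 1 and 0.02 in set 2), Timp1 (-0.06 and -0.10) and both probes of Timp3 (-0.10 and -0.06, and -0.08 and -0.09). The Cdh1 and control arrays did not overlap for 0 of the 8 probes, against 18.1% of all probes. Plat had the largest difference in each set, 0.61 in set 1 and -0.30 in set 2, of opposite sign. With the culture set as a block the adjusted p-values of the 8 probes were 0.871 to 0.968 (limma).

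**Figure D2:**
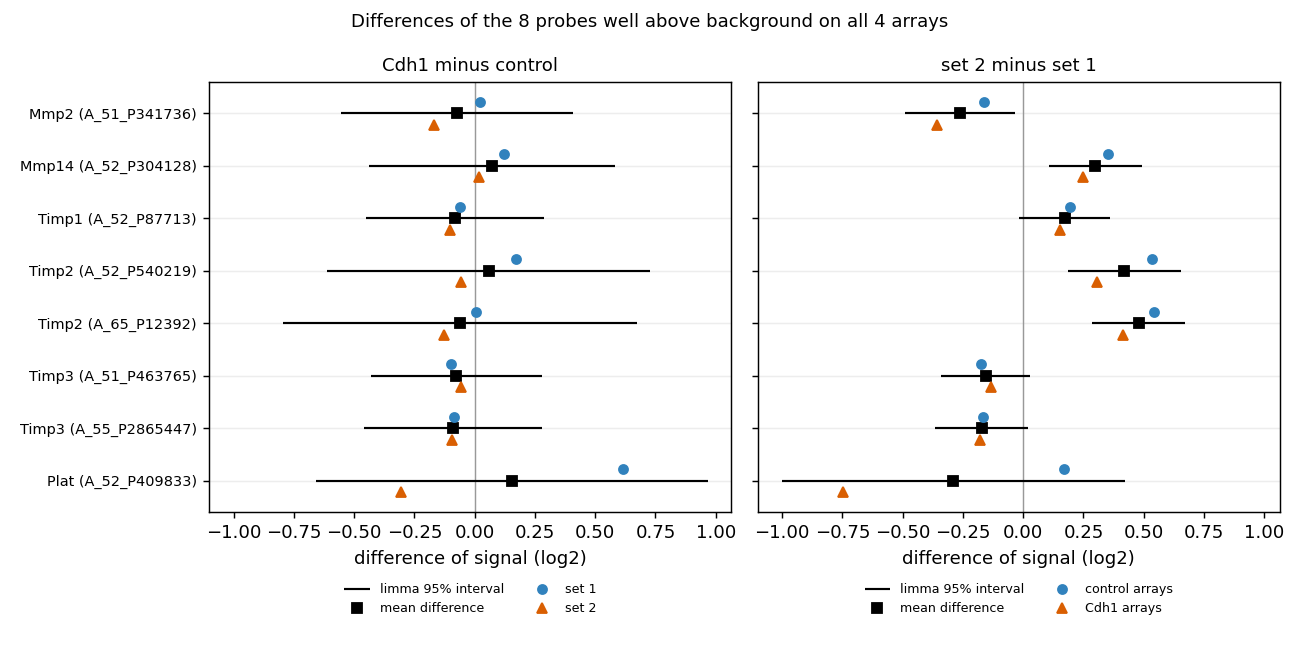
Differences of signal on the log2 scale for the 8 detected probes, for Cdh1 minus control on the left and set 2 minus set 1 on the right. Black squares and lines are the mean difference with its limma 95% interval, and coloured points are the differences within each set (left) or within each treatment group (right). On the left every interval crosses 0. On the right the Timp2 and Mmp14 intervals lie above 0 and that of Mmp2 below it.

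The sets differed more than the treatments did, and among the members Timp2 was the one called, higher in set 2. The 2 arrays of a set are its control and its Cdh1 culture. Here and below, SDs, SEs and p-values between the sets therefore rest on the spread between the 2 cultures of a set. They do not measure how much repeated sets vary. On its second probe Timp2 was 2.63 ± 0.0025 in set 1 and 3.11 ± 0.09 in set 2 (SD, n = 2). The sets differed by 0.48 (SE 0.07), or 1.39-fold, at an adjusted p of 0.0303 (limma, 32955 probes). Its first probe was 5.29 ± 0.12 and 5.71 ± 0.04 (SD, n = 2). The sets differed by 0.42 (SE 0.08), or 1.34-fold, which missed the threshold at an adjusted p of 0.0512 (limma). The call on the second probe was lost with the treatment as a block (adjusted p 0.0629, limma) and without the filter on dim probes (0.161, limma). It was also lost when any 1 of the arrays was left out, which leaves a single array in 1 of the sets. The difference on this probe was then 0.42 to 0.54. The direction was the same on both probes in control arrays (0.53 and 0.54) and in Cdh1 arrays (0.30 and 0.41).

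Thus 1 of the 8 member probes was called between the sets, while 15.5% of all probes tested were, 6.82% higher and 8.64% lower in set 2. Higher calls were thus 44.1% of all calls, but 53% with the scaling of the authors' deposited table, so the larger direction depended on the processing. They were 48.3% with median centring and 46.9% with quantile normalization. With normexp, which also changes the background correction, and quantile normalization they were 50.9%. The members' share is near that background. An unadjusted p under 0.05 was reached by 4 of the 8 probes and by 36.6% of all. The arrays of the sets did not overlap for 7 of the 8 probes, against 67.6% of all probes, the exception being Plat. Of the 8 probes 4 were higher and 4 lower in set 2, where 49.8% and 50.2% of all probes were, and 7 had the same sign in control and Cdh1 arrays, beside 77.4% of all. The median absolute difference was 0.28 for the 8 probes and 0.18 for all.

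The other members did not pass the threshold between the sets. Mmp14 was 0.22 ± 0.09 in set 1 and 0.52 ± 0.01 in set 2 (SD, n = 2). The sets differed by 0.30 (SE 0.07), with an adjusted p of 0.0652 (limma). Mmp2 was -1.87 ± 0.02 and -2.13 ± 0.12 (SD, n = 2). The sets differed by -0.26 (SE 0.08), with an adjusted p of 0.109 (limma). Mmp14 and Mmp2, activator and substrate, thus had differences of opposite sign, as both did within the control arrays (0.35 and -0.16) and within the Cdh1 arrays (0.25 and -0.36). The difference was 0.17 for Timp1 (limma adjusted p 0.160) and -0.16 and -0.17 for the probes of Timp3 (limma adjusted p 0.182 and 0.166). Plat differed by -0.29 with an SE of 0.25 (limma adjusted p 0.454), being 0.17 in the control arrays and -0.75 in the Cdh1 arrays. Among the inhibitors, the values of Timp1 and Timp2 were therefore higher and those of Timp3 lower in set 2. The summed level of the melanocyte markers was 1516 to 1549 in set 1 and 1318 to 1322 in set 2. Of these 7 genes 6 were lower in both arrays of set 2. The sets were furthest apart for Tyr, at 3.82 and 3.66 in set 1 and 1.90 and 2.04 in set 2, a fall that the sum hardly shows. Sox10 was higher, at 5.12 and 5.07 in set 1 and 5.31 and 5.29 in set 2. The summed fibroblast level was 3.42 to 3.61 in set 1 and 2.75 to 2.89 in set 2 and came mostly from Col1a2, with signals of 1.76 and 1.67 in set 1 and 1.43 and 1.36 in set 2. Col1a1 and Pdgfra were also lower in set 2, whereas the sets overlapped for Pdgfrb. Their part in the differences between the sets was not tested. Only total RNA of whole cultures was measured, so fewer cells with a transcript and less transcript per cell cannot be told apart.

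The rest of the protease system was then described with 6 lists of 99 genes, all on the array, each gene by its brightest probe. Of these, 56 were detected on all 4 arrays, and 34 had no probe well above background on any array. Of the 19 other metalloproteinases, 14 were not well above background on any array. Those that were are Mmp11, Mmp15, Mmp17, Mmp23 and Mmp28. Mmp23 is named for the size of its difference between the sets and the other 4 because they were detected. Among the 8 inhibitors and activators, Timp4, Reck, Bsg, Furin and Pcsk7 were detected on all 4 arrays, of which Furin and Pcsk7 are likewise named because they were detected. Of the 16 genes of the plasminogen system list 10 were, of the 28 ADAM and ADAMTS genes 15, of the 16 cathepsins and cystatins 13, and of the 12 other pericellular proteases 8. The lists were broader than their names. The 10 include the serpins Serpinb6a, Serpinb9 and Serpinh1, and the 8 include heparanase (Hpse), which is not a protease. Counts over a list are thus not counts of proteases or of plasminogen genes alone.

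With Cdh1, 0 of the 57 tested genes of the lists were called (limma), as were 0% of all genes. Of these, 23 were higher and 34 lower in the mean, and 41.4% of all 14450 genes tested were higher. Among the genes detected on all 4 arrays, the 6 largest differences were those of Tll1, Serpinf2, Adam8, Ctso, Adam12 and Timp4. Fap, a membrane serine protease detected on 3 arrays, was named after its value was seen. Its mean difference was of similar size to that of Tll1 and opposite sign, -1.32 (limma adjusted p 0.999988), with -0.32 in set 1 and -2.31 in set 2. However, its signal in Cdh1 set 2, -6.13, lay below the dimmest detected probe of that array (-5.60). The -2.31 and the mean difference thus rest on a value at background and are not measured sizes. Tll1, a tolloid-like protease, rested on 1 array: its signal was -4.88, -4.91 and -4.69 in control set 1, Cdh1 set 1 and control set 2, and -2.04 in Cdh1 set 2. Serpinf2, the main inhibitor of plasmin, was higher with Cdh1 by 0.35 in set 1 and 1.87 in set 2. The size of its mean difference also rested mostly on Cdh1 set 2, at -3.73. Its signal was -5.15, -4.80 and -5.60 in control set 1, Cdh1 set 1 and control set 2. The dimmest detected probes of these arrays were at -5.77, -5.94 and -6.04. Adam8, a membrane protease, was higher by a similar amount in both, 0.34 and 0.28, on average by 0.31 (SE 0.11). The cathepsin Ctso was higher by 0.22 and 0.27. The mean differences of Adam12 and Timp4 were -0.22 and -0.21, and the dimmer probe of Timp4 gave 0.15. These 6 had a limma adjusted p of 1.

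Between the sets, 24 of the 59 tested genes of the lists were called, 12 higher and 12 lower in set 2 (limma), which is 40.7% beside 19% of all 14640 genes tested. Called or not, 32 were higher and 27 lower in set 2, and 45.3% of all genes were higher. The median difference of the lists together was 0.01, beside -0.03 for all genes. With the treatment as a block 11 of the 59 were called. Without the control array of set 2 there were 4 calls, and there were 0 on leaving out any other single array or the filter on dim probes. The calls went in both directions in each list except 2. None of the cathepsins and cystatins was called higher while 6 of 14 were called lower, with a median of -0.21, and the inhibitors and activators had 1 call, Timp4.

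Timp4, the fourth member of the TIMP family, was higher in set 2 on both of its probes. Its brighter probe was -3.61 ± 0.26 in set 1 and -2.71 ± 0.04 in set 2 (SD, n = 2). The sets differed by 0.90 (SE 0.14), with an adjusted p of 0.0354 (limma). Its further probe gave 0.91 (limma adjusted p 0.0237). Reck, a membrane-anchored inhibitor of metalloproteinases, differed by 0.14 (limma adjusted p 0.164). Bsg, also called EMMPRIN because it can induce metalloproteinases in neighbouring cells, differed by 0.04 (limma adjusted p 0.727). Mmp23 differed by -0.99, lower in set 2, with an SE of 0.08 (limma adjusted p 0.0136).

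In the plasminogen system, Plaur, the receptor that holds urokinase at the cell surface, was 1.05 ± 0.06 in set 1 and 0.41 ± 0.04 in set 2 (SD, n = 2). The sets differed by -0.64 (SE 0.06), with a limma adjusted p of 0.0161. Plaur was thus measurable on all 4 arrays while neither probe of its ligand Plau was. Serpine2, a protease inhibitor that blocks plasminogen activators and thrombin, was higher in set 2 by 0.39 with an SE of 0.05 (limma adjusted p 0.0273). This call was lost with the treatment as a block (limma adjusted p 0.0659), as was that of the brighter probe of Timp4 (0.0519). The further probe of Timp4 kept its call with the block (limma adjusted p 0.0478).

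Among the list genes detected on all 4 arrays, the 6 largest differences between the sets were those of Htra3, Tll1, Adam19, Prss23, Hpse and Mmp23. Adam22, also named after its value was seen, was detected on both arrays of set 2 (-4.58 and -4.66) and on neither of set 1 (-6.33 and -6.36). Its mean in set 2 was 2.35-fold above the mean level of the dimmest detected probes of the set 1 arrays. Undetected probes can lie above that level, for example at -5.67 against -5.77 in control set 1. The 2.35-fold is thus not a strict lower bound. Adam22 passed the filter through set 2 alone and counts among the called genes of the lists. The limma adjusted p of Adam22, 0.00636, was computed from the undetected set 1 values and does not test that fold. Htra3, a secreted serine protease, was higher in set 2 by 2.20 on its brighter probe (limma adjusted p 0.00817) but by 0.29 on its other probe (limma adjusted p 0.135), so its probes disagree on the size. Adam19 was higher by 1.34 and Prss23 by 1.25, with limma adjusted p-values of 0.00832 and 0.0105. Hpse, the heparan sulfate degrading enzyme heparanase, was lower in set 2, by a difference of -1.01 on its brighter probe and -0.74 on the other. The limma adjusted p was 0.0194 on the former, which became 0.0513 with the treatment as a block. On the other probe it was 0.0327, and 0.0452 with the block, so that call was kept. Tll1 differed by 1.53 through the single array named above and was not called (limma adjusted p 0.319).

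**Figure D3:**
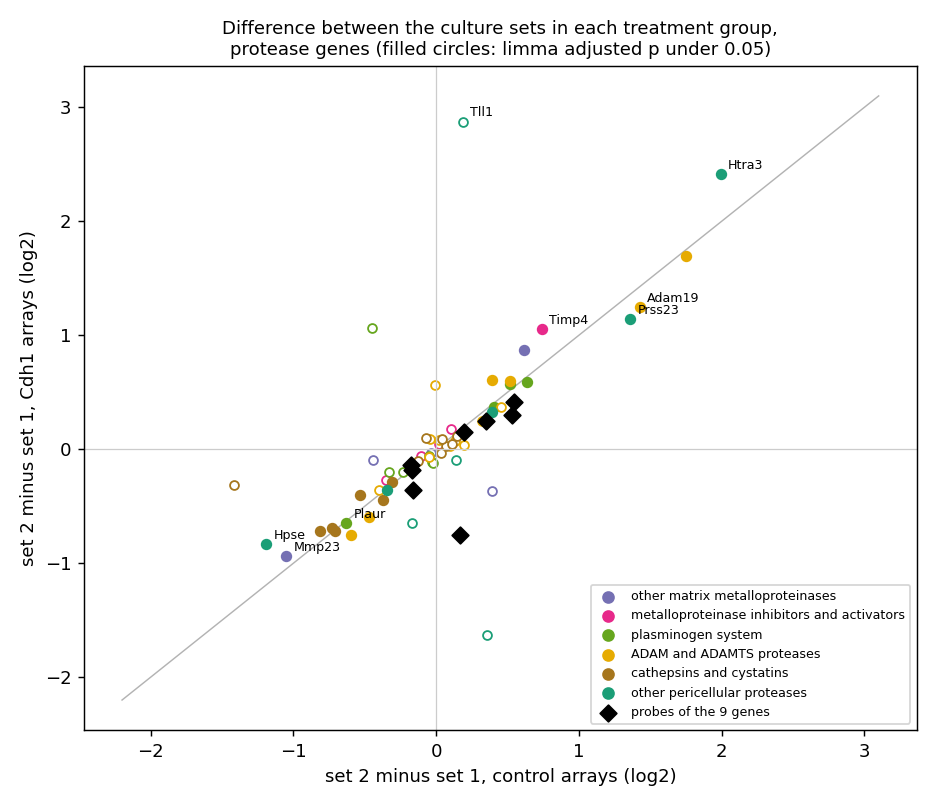
Difference of signal between culture sets on the log2 scale, in the control arrays (horizontal axis) and in the Cdh1 arrays (vertical axis), for 59 genes of the 6 protease lists (circles, filled where limma called them) and the 8 measured probes of the 9 genes (black diamonds). The line marks equal differences. Called genes lie along it on both sides of 0, the diamonds lie within 0.75 of 0 on both axes, and Tll1 stands far from the line, at 0.19 and 2.87.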

How the data were processed

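Total RNA of 4 B16-F10 cultures was labelled with Cy3, per the labels, and hybridised to 1-colour Agilent arrays. Per the file headers, the authors read them with Agilent Feature Extraction 12.0.3.1. The deposited processed intensity is linear, background-subtracted and detrended within each array, and not normalized between arrays. The authors' deposited table is that intensity times 1 factor per array (0.873 to 0.930).

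Log2 intensities were taken relative to each array's 75th percentile over non-control spots, without 115 to 143 spots per array marked as outliers. A probe's spots were averaged, and a probe was called detected if over 0.5 of its spots, as a share, carried the flag for well above background. The test took probes detected on both arrays of a compared group. It used limma 3.58.1 in R 4.3.3 (lmFit, eBayes, Benjamini-Hochberg, threshold 0.05). The code was also run on simulated arrays with independent noise. That run leaves out the likeness of arrays of the same set, so it does not show how the test performs on these data. Probes were named by RefSeq accession through a table for GRCm38.p6 (33767 of 56605 matched). The array design names mm9, so no coordinates of that table were used. Set numbers pair the samples per the design text. The correlation of same-numbered deviations from group means was 0.744 across probes, and the set entered as a block in an alternative. Other alternatives changed the background correction (normexp, offset 50, on the median signals), scaling, filter, marked spots, prior, edge rows and arrays used.

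Named were the 9 genes; Plaur, Serpine2, Reck, Timp4 and Bsg; and, from the 6 lists, the 6 largest differences of each comparison among genes detected on every array. Members, lists and tests were chosen with earlier results of these data known. A further gene of the rule is not reported here. P-values measure the spread between these cultures only.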

Additional observations from a re-analysis of the deposited data

Results flagged for a closer look

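The Cdh1 difference had opposite signs in the 2 sets for 4 of the 8 measured probes. With 1 control and 1 Cdh1 array per set, the difference between the sets was not tested. For Plat it was 0.61 in set 1 and -0.30 in set 2, which is -0.92 from set 1 to set 2, at processed intensities of 19.1 to 30.1. For Mmp2 it was 0.02 and -0.17, a change of -0.19. For the brighter probe of Timp2 it was 0.17 and -0.06, a change of -0.23, and for its other probe 0.0035 and -0.13, a change of -0.13.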

How the results depend on the processing

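Between Cdh1 and control, the counts of 0 called member probes, 0 called probes and 0 called genes of the lists held under every alternative run, with the replicate block (0) and with each array left out (0 to 0) included. With 1 array left out, the mean Cdh1 difference changed sign for the brightest probe of each measured gene: Mmp2 ranged from -0.25 to 0.11, Mmp14 from -0.10 to 0.25, Timp1 from -0.18 to 0.015, Timp2 from -0.21 to 0.32, Timp3 from -0.16 to 0.011 and Plat from -0.22 to 0.53. Treatment and set are then no longer balanced, and part of the set difference falls on the treatment by construction. The mean of both Timp2 probes was -0.0020, with the sign of the dimmer probe. The dimmer probe of Timp3 stayed negative on leaving out any array, at -0.18 to -0.00023.

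Between the sets, the count of 1 called member probe became 3 with normexp and quantile normalization, 2 over probes detected on every array, 2 without the last 24 rows of spots, 5 with the trend and robust prior, 0 without the filter on dim probes, 0 with the treatment as a block and 0 to 0 on leaving out any array. Over all probes, 5095 calls turned into 9032 (normexp), 11194 (trend and robust prior), 0 without the filter, 2165 with the treatment block and 0 to 706 on leaving out any array. The 24 called genes of the lists became 0 without the filter, 11 with the treatment block and 0 to 4 on leaving out any array. The cause of these changes in the counts was not tested. All alternatives for the lists were chosen after seeing the data. Of the measured genes only Plat changed direction between the sets (-0.60 to 0.017 with 1 array left out). Signal over background limits Mmp3, Mmp9 and Plau, which were not well above background on any array.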
